A study of Mus musculus with 46 samples.

Results

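Martinotti cells and PV basket cells of the mouse frontal cortex were compared gene by gene, to describe how an interneuron that makes the peptide somatostatin and one that makes the calcium-binding protein parvalbumin differ in their RNA. The libraries were chosen by the cell type in their sample labels, 20 of the 46 libraries and 189 of the 584 cells of the series. Single fluorescent neurons were isolated from fresh slices and their polyadenylated RNA was amplified linearly in 2 rounds, with a random tag on each amplified molecule. Each library pooled up to 16 barcoded cells, and the values are counts per gene and cell.

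The Martinotti group held 62 cells in 4 libraries from 2 labelled mice of the cross Sst-Flp; CR-Cre; Ai65, taken at postnatal day 35 from layer 2/3 of animals labelled female. Libraries 1 and 2 came from animal 1, and libraries 3 and 4 from animal 2. In this cross a cell is marked where Sst drives Flp and Calb2, the calretinin gene (CR in the labels), drives Cre. The PV basket group held 127 cells in 16 libraries from 4 labelled mice of the cross Pv-iresCre; Ai14, at postnatal days 58, 81 and 83, from all layers and both sexes. Cre from Pvalb acts in every cell that expresses that gene, so the cross alone does not separate basket cells from other parvalbumin cells. The labels number 18 animals over the series, whereas its design text mentions 4, and the labels were followed, so that the number of animals behind a replicate is as labelled only. The animals are labelled wild type and untreated, and all labels carry a note on tamoxifen given to Nkx2.1-CreER mice, an allele neither cross has. Cell type was confounded with flow cell, age, layer and cross, and partly with sex, so that their shares in a difference cannot be told apart.

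Both cell types are GABAergic neurons that arise in the medial ganglionic eminence. Martinotti cells send axons to layer 1 and inhibit the distal dendrites of pyramidal cells, receive excitatory inputs that grow stronger during a train, and release somatostatin with other peptides. PV basket cells fire fast trains of narrow spikes, receive brief and strong excitation, and inhibit the soma and proximal dendrites of their targets.

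The 16 PV basket libraries formed 8 pairs that were sequenced in neighbouring lanes under the same library index. Libraries of a pair differed by only 1.22 to 1.72 times the sampling noise (a chi-square ratio over genes, 1 where counting alone separates them) and shared no cell barcode, whereas other PV basket libraries differed by 8.28 to 29.8 times. Each pair was therefore summed into 1 pool although its labels name 2 animals, and the 8 pools formed 2 replicates, animals 7 with 8 and animals 9 with 10. The 4 Martinotti libraries differed from each other by 37.3 to 52.4 times the noise and formed 2 replicates, 1 per animal. The 2 libraries of animal 1 differed most (52.4) and those of animal 2 least (37.3). The PV basket pools, which are closer to a Martinotti library in cell number than single PV basket libraries, differed by 16.9 to 41 times. The median pair of cells within a library differed by 1.09 to 1.13 times the noise over the Martinotti libraries and by 1.03 to 1.33 times over the PV basket libraries. For the same spread this ratio rises with the number of counts, and a cell holds far fewer counts than a library. The ratios of cells and of libraries are therefore not comparable in size. Cells share their library and animal and were not treated as replicates, and whether RNA passed between the barcodes of a library was not tested. The median cell held 107782 counts in Martinotti and 130761 in PV basket cells, and libraries held 669418 to 3115229 counts. A level is given in CPM, the count of a gene scaled to a common total per library, for each Martinotti library or for the lowest, median and highest PV basket pool, and a fold is the ratio of the 2 mean levels over replicates. Where a type has no count of a gene, the gene is set at the floor that 3 counts over that type allow, 0.362 CPM in Martinotti and 0.144 CPM in PV basket cells, which covers counting error only.

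Counts were summed per replicate and tested with edgeR's quasi-likelihood test in 1 fit over the 7 cell types of the study, and a gene was called at a Benjamini-Hochberg adjusted p under 0.05. Of 15533 genes tested, 207 (1.33%) were higher in Martinotti cells and 208 (1.34%) were lower, together 2.67%. The higher calls included many gamma-protocadherin entries (Pcdhg) with similar values (log2 1.58 to 2.06). Pcdhgb1 and Pcdhga4 had identical counts, as did Atp6v0c and Atp6v0c-ps2. The 207 calls are therefore not all separate observations. The median fitted log2 fold change over all genes was -0.03. These shares and this median are the background for the counts and medians of each gene list below. In 1303 genes (8.39%) the 4 Martinotti libraries and the 8 PV basket pools did not overlap. With n = 2 replicates in each of the 2 compared types, p-values measure the spread between these samples and, through the shared fit, that of the other types. Calls were repeated in 33 alternative fits. The number of calls fell to 303 without Martinotti animal 1, 183 without animal 2, 69 without PV basket animals 7 and 8 and 70 without animals 9 and 10, and 43 calls (27 higher and 16 lower) passed in every alternative that tested them.

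The genes behind the crosses separated the libraries fully. Sst, the somatostatin gene, stood at 1080, 1345, 1717 and 1912 CPM in Martinotti libraries 1 to 4, and at 0 to 7.28 CPM in PV basket pools with a median of 0.174. It was 967-fold higher in Martinotti cells (log2 9.87 ± 0.50, SE, adjusted p = 2.24e-06). Calb2 was at 33.7, 149, 196 and 41.9 CPM against 0 to 5 CPM with a median of 0.44, which is 95.3-fold higher (adjusted p = 0.0132). The 2 libraries of each animal differed more than 3-fold, and all 4 stood above every pool. Pvalb, the parvalbumin gene, was at 809 to 1310 CPM in PV basket pools with a median of 1009, and at 0, 7.38, 0 and 0.736 CPM in the Martinotti libraries. It was 470-fold lower in Martinotti cells (log2 -8.65 ± 1.41, SE, adjusted p = 0.00529). The call of Calb2 ended without either PV basket replicate (adjusted p = 0.135 and 0.166, the highest over the alternatives) and that of Pvalb without Martinotti animal 2 (0.0529, likewise the highest). As the crosses select on these genes, their levels check the labels and are not independent evidence.

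Upstream windows are shown for Sst and Pvalb, as the genes behind the crosses, and for Npy and Ptpru, 2 genes with large differences in the Martinotti direction. Each is the 120 bases before the annotated start, 5′ to 3′ on the strand of the gene, from RefSeq on GRCm38.p6. Capitals mark TGACGTCA, the palindromic cAMP response element, which reads the same on both strands.
Sst, chr16:23890845-23890964, minus strand: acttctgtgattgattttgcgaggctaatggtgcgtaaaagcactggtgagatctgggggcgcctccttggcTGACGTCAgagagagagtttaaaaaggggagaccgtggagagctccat
Ptpru, chr4:131838279-131838398, minus strand: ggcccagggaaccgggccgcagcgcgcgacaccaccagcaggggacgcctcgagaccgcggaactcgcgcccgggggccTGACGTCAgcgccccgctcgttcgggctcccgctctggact
Npy, chr6:49822590-49822709, plus strand: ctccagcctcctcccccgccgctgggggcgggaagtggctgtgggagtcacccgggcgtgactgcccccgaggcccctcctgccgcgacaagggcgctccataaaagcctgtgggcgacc
Pvalb, chr15:78204238-78204357, minus strand: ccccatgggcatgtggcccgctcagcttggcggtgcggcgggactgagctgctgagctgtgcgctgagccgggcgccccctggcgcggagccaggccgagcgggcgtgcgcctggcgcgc
Pvalb, chr15:78206401-78206520, minus strand: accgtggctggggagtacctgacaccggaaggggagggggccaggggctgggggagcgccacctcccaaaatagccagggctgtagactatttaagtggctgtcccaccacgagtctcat
The element began 48 bases before the start of Sst and 41 bases before that of Ptpru, a receptor tyrosine phosphatase gene. It was in none of the other windows shown, nor in those of Erbb4 and Vamp1, which were also searched and were lower in Martinotti cells. Within 250 bases before the start, it was in 478 of 27025 genes of the promoter table (1.77%) and in 313 of the 10913 tested genes with an entry (2.87%). It was in 9 of the 137 matched genes that were higher in Martinotti cells (6.57%) and in 4 of the 146 that were lower (2.74%). Sst and Ptpru had the largest differences of those 9 genes, so the windows shown do not tell how common the element is. A match describes the letters of the window and is not a measure of binding.

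Of the called genes with at least 50 CPM in the higher type, no overlap between the groups and a usual symbol, the 15 with the largest differences on the Martinotti side included signalling genes with little or no RNA in PV basket cells. Pde1a, a calmodulin-dependent phosphodiesterase gene, was at 543, 409, 403 and 354 CPM against 2.37 to 43.6 CPM with a median of 5.88 (50.1-fold higher, adjusted p = 4.42e-05). Adcy2, an adenylyl cyclase gene, was at 429, 693, 421 and 598 CPM against 5.69 to 19.8 CPM with a median of 12 (43.8-fold, adjusted p = 2.59e-05). Rgs8, a regulator of G-protein signalling, was at 65.9, 75.4, 92 and 141 CPM against 0 to 1.36 CPM with a median of 0.174 (279-fold, adjusted p = 0.000529). For these genes all 4 Martinotti libraries lay within about the same range, far above the highest pool. Man1a, a Golgi mannosidase gene, was 43.7-fold higher, and Ptpru was 262-fold higher although its libraries ran from 2.68 to 124 CPM. Rasl11a, of the Ras family, was at 392 and 449 CPM in the libraries of animal 1 and at 44.6 and 55.9 CPM in those of animal 2, against at most 0.727 CPM in any pool (adjusted p = 0.00441). Fxyd6, a regulator of the sodium pump, was at 16.9 to 177 CPM against at most 0.727 CPM (adjusted p = 0.0257). Pde1a, Adcy2, Rgs8 and Man1a passed in all alternatives that tested them. The calls of Ptpru and Rasl11a ended without either PV basket replicate, and that of Fxyd6 without any of the 4 replicates (adjusted p up to 0.271).

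On the PV basket side genes were taken by the same criteria. Cox6a2, a muscle-type subunit of cytochrome c oxidase, had no count in any Martinotti library and stood at 55.5 to 153 CPM in the pools, with a median of 109. It was at least 306-fold lower in Martinotti cells (adjusted p = 0.00197). Erbb4, the neuregulin receptor gene, was at 22.9, 23.8, 58.9 and 65.5 CPM against 1490 to 2902 CPM with a median of 2306, 52.5-fold lower in Martinotti cells (log2 -5.78 ± 0.55, SE, adjusted p = 0.000119). Ptpre, a tyrosine phosphatase gene, had counts in 2 of the 4 Martinotti libraries, at 0.321 and 0.736 CPM, against 128 to 205 CPM (adjusted p = 0.000436). The groups stood far apart for each of these genes, with the PV basket pools within a narrow range. Zfp804a, a zinc finger gene, was 102-fold lower in Martinotti cells and Gpr176, an orphan receptor gene, was 51.4-fold lower. Slit2, a secreted guidance factor, was at 0.321 to 5.89 CPM against 202 to 422 CPM (125-fold lower, adjusted p = 0.015). Fam19a2, which encodes a small secreted protein, was 32-fold lower, and Sept4, a septin gene, was 266-fold lower. Parm1, the muscle adenylosuccinate synthase gene Adssl1, the Ras-related gene Rerg and the translation factor gene Eif5a2 were the remaining genes described from this selection outside the receptor subunits, with 0 to 3.68 CPM in the Martinotti libraries and 8.29 to 197 CPM in the pools. Cox6a2, Erbb4, Ptpre, Zfp804a and Gpr176 passed in all 33 alternatives. Fam19a2 and Sept4 lost the call without Martinotti animal 2 (adjusted p = 0.0648 and 0.0675, the highest of their alternatives), and the other 5 lost it without at least 3 of the 4 replicates (adjusted p up to 0.156).

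**Figure D1:**
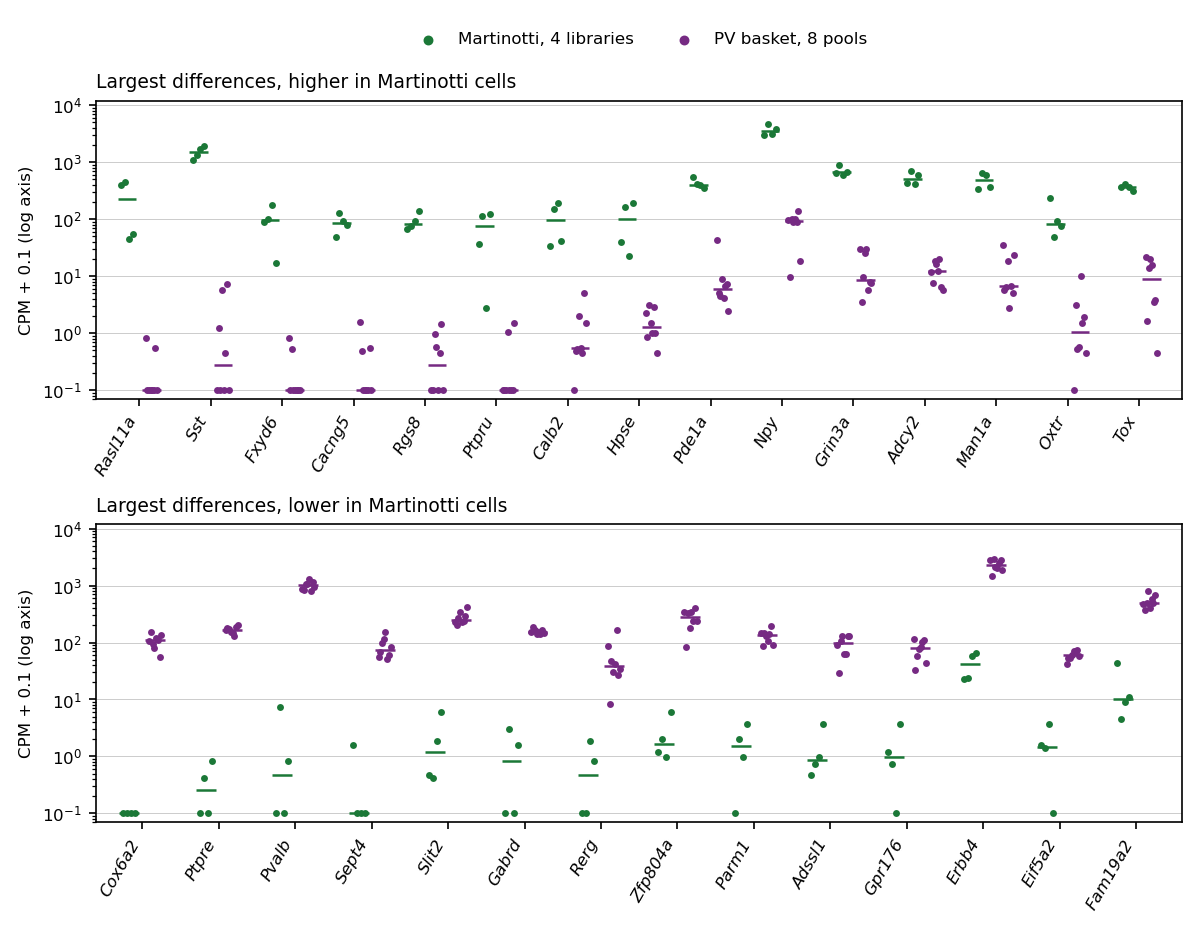
Levels (CPM + 0.1, log axis) of genes described in the text that are among the 15 largest differences of their direction within the called genes that passed the level and overlap criteria; green points are the 4 Martinotti libraries, purple points the 8 PV basket pools, and lines are medians. No group of Martinotti points overlaps the PV basket points of its gene, as the choice of genes required. Between Martinotti libraries Ptpru runs from 2.68 to 124 CPM and Rasl11a from 44.6 to 449 CPM.

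Peptide genes and secreted factors were described as a list of 29 tested genes, of which 4 were higher in Martinotti cells and 2 lower (median log2 1.03). Npy, the neuropeptide Y gene, was at 3061, 4623, 3164 and 3782 CPM against 9.42 to 142 CPM with a median of 93.6, 47.8-fold higher (adjusted p = 0.00056). Vgf, the precursor of several secreted peptides, was at 610, 942, 1734 and 1673 CPM against 70.2 to 180 CPM with a median of 86.8, 12.5-fold higher (adjusted p = 0.00141). The libraries of animal 2 held more Vgf than those of animal 1, and all 4 stood above every pool. Igf1, insulin-like growth factor 1, was at 74.5 to 275 CPM against 0.471 to 9.96 CPM, 35-fold higher (adjusted p = 0.00235). Cck, the cholecystokinin gene, was at 12.6, 26, 0 and 0.736 CPM against 159 to 282 CPM, 22.4-fold lower (adjusted p = 0.0458). Pthlh, which encodes the parathyroid hormone-like peptide, had no count in the Martinotti libraries and stood at 0 to 80 CPM in the pools (median 10), lower by at least 45.7-fold (adjusted p = 0.00529). Npy and Vgf passed in all 33 alternatives, Pthlh in all but that with only the 2 types (0.105, the highest of its alternatives), Igf1 failed without PV basket animals 9 and 10 (0.0716, the highest of its alternatives), and Cck failed in 16 of 33 (adjusted p up to 0.185), among them the fits without Martinotti animal 2 and without either PV basket replicate.

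Other peptide genes stood apart without passing the test. Tac1, which encodes substance P, had no count in any Martinotti library and stood at 443 to 1465 CPM in the pools with a median of 719, at least 2331-fold apart, with an adjusted p of 0.137. Crhbp, which encodes the binding protein of corticotropin-releasing hormone, was at 1859, 1945, 2466 and 1542 CPM against 126 to 277 CPM with a median of 185 (ratio 9.53, adjusted p = 0.242). The groups of both genes did not overlap. Calb1, the calbindin gene and a further Martinotti marker, was at 1191, 819, 487 and 222 CPM against 69.8 to 569 CPM, with overlap (adjusted p = 0.74).

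Ionotropic glutamate receptors and their auxiliary subunits, which carry and shape fast excitatory input, gave 7 higher in Martinotti cells and none lower of 33 tested (median log2 0.96, against 1.33% of all genes called higher). Over the alternatives 0 to 18 were higher and 0 to 4 lower. Gria1, the AMPA receptor subunit GluA1, was at 5561, 3416, 6064 and 4293 CPM against 1357 to 1784 CPM with a median of 1471, 3.12-fold higher (adjusted p = 0.0203). Grin3a, an NMDA receptor subunit that lowers calcium entry, was at 651, 890, 600 and 679 CPM against 3.39 to 30.4 CPM with a median of 8.59, 46.9-fold higher (adjusted p = 0.00345). In both the libraries lay above every pool, by a wide margin in Grin3a. Grik3, a kainate receptor subunit, was at 325 to 501 CPM against 64 to 132 CPM, 4.5-fold higher (adjusted p = 0.00334).

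The other calls were auxiliary subunits. Cacng3, a member of the AMPA receptor regulatory family, was at 325, 340, 105 and 333 CPM against 1.88 to 22.6 CPM, 21.8-fold higher (adjusted p = 0.0101). Cacng5 was at 48.5, 127, 91.1 and 78.7 CPM against at most 1.45 CPM, 403-fold higher (adjusted p = 0.0165), and Cacng4 was at 0.963 to 53.7 CPM with no count in any pool, at least 183-fold higher (adjusted p = 0.0449). Neto1, an auxiliary subunit of kainate receptors, was 8.46-fold higher. The remaining AMPA receptor subunits had no call: Gria2 averaged 235 and 307 CPM, Gria3 400 and 427 CPM, and Gria4 587 and 589 CPM in Martinotti and PV basket cells (adjusted p = 0.479, 0.935 and 0.967). Among 7 metabotropic receptors 2 were higher, Grm4 at 26.8 to 67.7 CPM against 0 to 2.13 CPM (60.3-fold, adjusted p = 0.00565) and Grm7 at 452 to 673 CPM against 38.1 to 123 CPM (5.87-fold, adjusted p = 0.0182). Grm5 averaged 735 and 682 CPM without a call (adjusted p = 0.962). Of these 9 calls none held without PV basket animals 7 and 8, and adjusted p ran up to 0.313 over all their alternatives. Grik3 held in all the others.

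GABA and glycine receptors, which receive inhibition, gave 7 lower in Martinotti cells and none higher of 22 tested (median log2 -0.38, against 1.34% of all genes called lower). Over the alternatives 3 to 9 were lower and 0 to 6 higher, with calls in both directions in 10 of 33. The fitted change was negative in 13 members and positive in 9. All Martinotti libraries lay below all pools in 7 members and above all pools in 4. Gabrb2, the beta2 subunit of the GABAA receptor, was at 2.59, 24.7, 15.2 and 49.3 CPM against 561 to 678 CPM with a median of 630, 25.9-fold lower (adjusted p = 0.00235). Gabrd, the delta subunit of extrasynaptic receptors, was at 0, 2.89, 0 and 1.47 CPM against 143 to 187 CPM with a median of 152, 134-fold lower (adjusted p = 0.0223). The pools lay close together in these genes, while the Martinotti libraries of Gabrb2 differed by over 10-fold among themselves. Gabrg3, the gamma3 subunit, was at 119 to 161 CPM against 511 to 824 CPM (4.43-fold lower, adjusted p = 0.000215). Gphn, the scaffold protein gephyrin, was 6.83-fold lower with overlapping groups, since the pools ran from 261 to 6442 CPM. Glra2, a glycine receptor subunit, was 5.97-fold lower, also with overlap. Gabra4 was at 7.14 to 34.7 CPM against 97.6 to 203 CPM without a call (adjusted p = 0.151), and Gabbr1, of the GABAB receptor, was at 1435 to 2028 CPM against 664 to 805 CPM without a call (adjusted p = 0.0786). Gabrb2 and Gabrg3 passed in all 33 alternatives. Gabrd, Gphn and Glra2 failed without any 1 of the 4 replicates (adjusted p up to 0.198).

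Voltage-gated potassium channels set spike width and firing rate, and the Kv3 channels of Kcnc1 and Kcnc2 are known for the narrow spikes of fast-spiking cells. Among 41 tested, 2 were higher in Martinotti cells and 4 lower. Kcnc2 was at 385, 338, 318 and 159 CPM against 1135 to 1628 CPM with a median of 1314, 4.54-fold lower (adjusted p = 0.0226). Kcnc1 was at 71.4, 202, 55.8 and 140 CPM against 269 to 637 CPM with a median of 518, 3.81-fold lower (adjusted p = 0.00633). Every Martinotti library lay below every pool, and the lowest pool of Kcnc1 stood closest. Kcnh7, an Erg channel, was 9.07-fold lower at 14.1 to 57.1 CPM against 275 to 385 CPM (adjusted p = 0.00258).

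Genes of the A-type current were called in both directions. Kcnip4, a Kv4 channel partner, was at 18.7, 19.1, 14.8 and 22.4 CPM against 211 to 466 CPM, 16.1-fold lower (adjusted p = 0.00312). Kcnd3, which encodes the Kv4.3 channel, was at 177, 113, 385 and 72.1 CPM against 4.9 to 49.8 CPM, 9.3-fold higher (adjusted p = 0.0155), and Dpp10, an auxiliary subunit of Kv4 channels, was 2.97-fold higher (adjusted p = 0.0223). Of the Kv1 channels, Kcna1 stood at 65.2 to 183 CPM against 229 to 434 CPM without overlap but also without a call (adjusted p = 0.283), and Kcna2 at 255 to 511 CPM against 460 to 772 CPM with overlap (adjusted p = 0.415). Of 28 leak, inward-rectifier and calcium-activated channels, 1 passed: Kcnj3, a G-protein-gated channel, was at 3.85 to 18.8 CPM against 47.1 to 195 CPM (10.4-fold lower, adjusted p = 0.0212). Kcnip4 and Kcnh7 passed in all alternatives that tested them. Kcnc2 and Kcnc1 failed without Martinotti animal 2 (adjusted p = 0.181 and 0.0643) and without PV basket animals 7 and 8 (0.127 and 0.1), at most 0.181 over their alternatives, and the other 3 calls failed without either PV basket replicate (up to 0.262).

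Sodium channel genes split by subunit, with 2 of 16 higher and 3 lower. Scn2a1, which encodes Nav1.2, was at 289, 367, 346 and 404 CPM against 24 to 146 CPM with a median of 82.1, 4.18-fold higher (adjusted p = 0.00166). Scn1a, which encodes Nav1.1, was at 191, 107, 85.7 and 124 CPM against 266 to 540 CPM with a median of 468, 3.52-fold lower (adjusted p = 0.0419). The groups did not overlap in either gene. Scn9a, which encodes Nav1.7, was 22.3-fold lower, the beta subunit gene Scn4b, without a single count in the Martinotti libraries, was lower by at least 66.9-fold, and the beta subunit gene Scn3b was 12.4-fold higher. Of 20 HCN and calcium channel genes 3 were higher and none lower (2 to 6 and 0 to 1 over the alternatives). Cacna2d3, an alpha2delta subunit, was at 560, 321, 594 and 723 CPM against 18.4 to 47.3 CPM (17.9-fold, adjusted p = 0.000128). Cacna1g, the T-type channel Cav3.1 of low-threshold spiking, was at 45.5, 61.3, 101 and 46.4 CPM against 1.39 to 11.4 CPM (12.2-fold, adjusted p = 0.00104), and Cacna1e, the R-type channel, was 15.8-fold higher (adjusted p = 0.00482). Scn2a1, Cacna2d3 and Cacna1g passed in all 33 alternatives. Cacna1e failed without either PV basket replicate (up to 0.106), Scn1a in 15 of 33 (up to 0.27), Scn9a and Scn3b in 11 of 33, and Scn4b in 8 of 31 (up to 0.298).

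**Figure D2:**
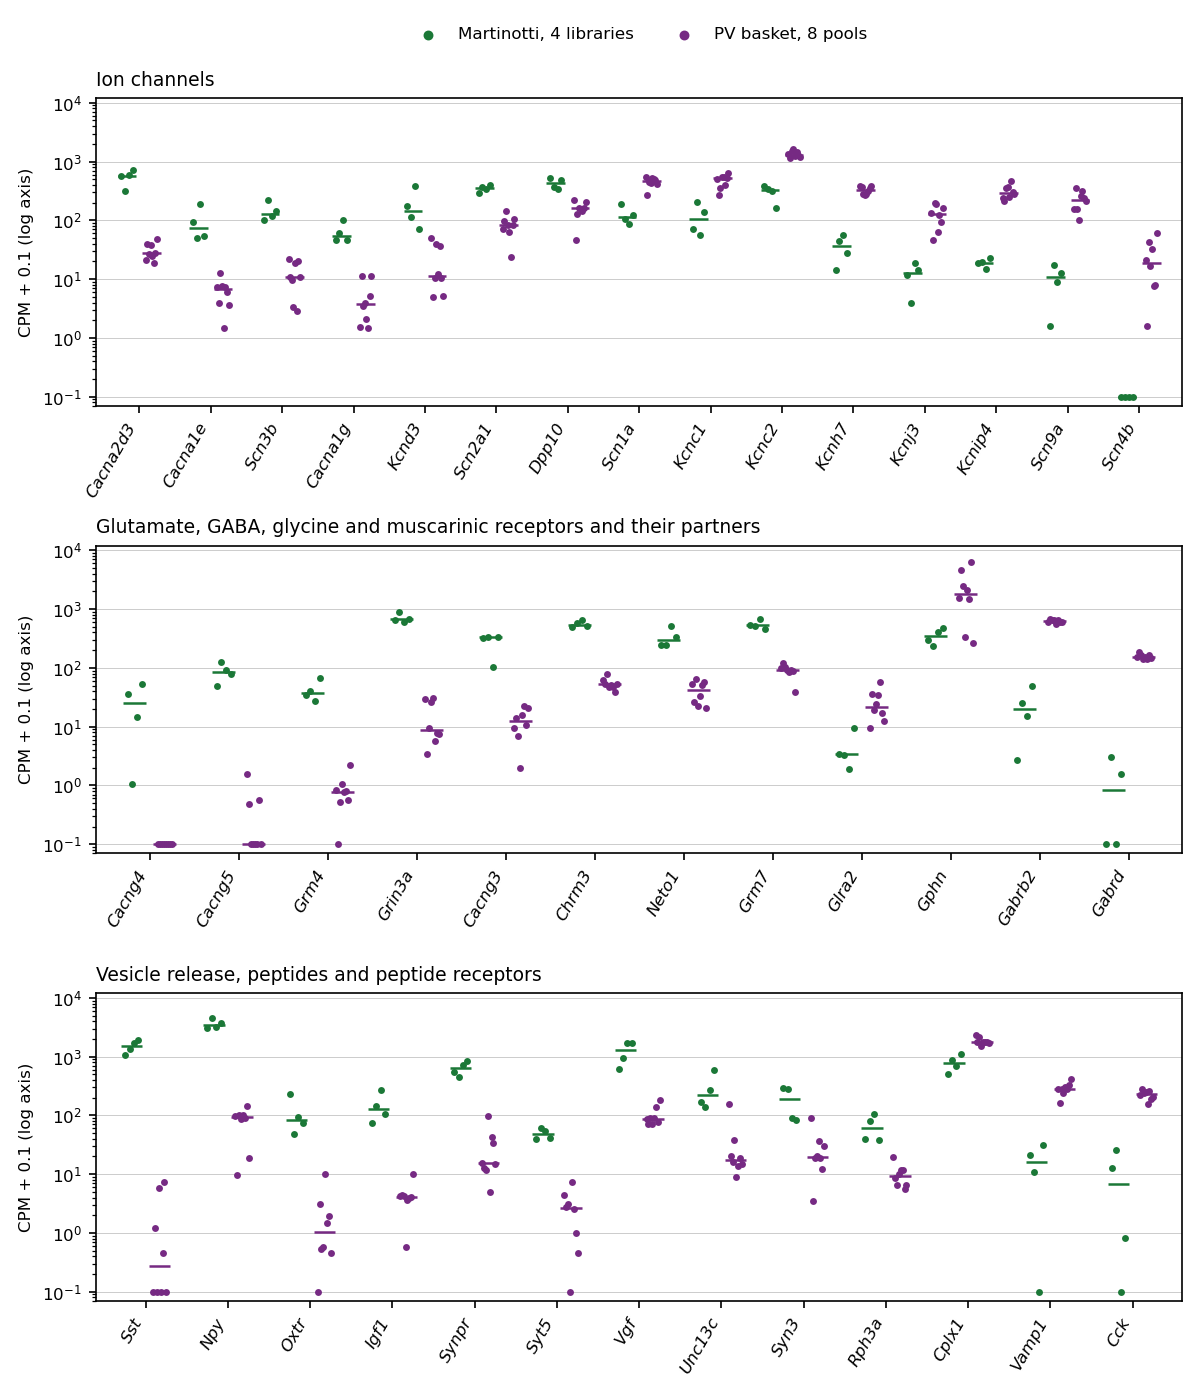
Levels (CPM + 0.1, log axis) of called members, described in the text, of the channel, receptor, vesicle and peptide lists, up to 5 per list and direction and at least 20 CPM in the higher type; green points are the 4 Martinotti libraries, purple points the 8 PV basket pools, lines are medians. The called glutamate receptor subunits, such as Grin3a (600 to 890 CPM against 3.39 to 30.4 CPM), lie high in Martinotti cells. The called GABAA receptor subunits, such as Gabrb2 (2.59 to 49.3 CPM against 561 to 678 CPM), lie low.

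Proteins of vesicle release gave 8 higher and 2 lower among 55 tested genes (median log2 0.39). Vamp1, or synaptobrevin 1, was at 21.1, 10.9, 0 and 31.6 CPM against 164 to 423 CPM with a median of 279, 17.1-fold lower (adjusted p = 0.00235). Cplx1, complexin 1, was at 510, 879, 688 and 1101 CPM against 1492 to 2289 CPM with a median of 1758, 2.24-fold lower (adjusted p = 0.015). Neither gene overlapped between the groups. Synpr, the vesicle protein synaptoporin, was at 456 to 838 CPM against 4.84 to 99.4 CPM, 23-fold higher (adjusted p = 0.0388). Syt5, a synaptotagmin gene, was 17-fold higher, and the Rab3 effector gene Rph3a 6.6-fold. Unc13c, of the vesicle priming family, was 10.3-fold and the synapsin gene Syn3 7.11-fold higher, both with 1 pool inside the Martinotti range. Syn2, synapsin 2, was at 742 to 1136 CPM against 326 to 490 CPM (2.32-fold, adjusted p = 0.00529). Syt1, the calcium sensor of fast release, averaged 3058 and 2062 CPM without a call (adjusted p = 0.209). Of the genes named here Vamp1 alone passed in all 33 alternatives. The others failed without PV basket animals 9 and 10, with adjusted p of up to 0.331 over their alternatives.

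Receptors and second messengers gave single calls beside Pde1a, Adcy2 and Rgs8. Chrm3, the muscarinic receptor coupled to Gq, was at 499, 582, 649 and 508 CPM against 38.7 to 78.6 CPM with a median of 52.3, 10.2-fold higher (adjusted p = 0.00154). Oxtr, the oxytocin receptor gene, was at 233, 48.5, 92 and 75.1 CPM against 0 to 9.91 CPM, 39.6-fold higher (adjusted p = 0.00482). All Martinotti libraries lay above all pools in both. Rgs6 and Rgs17, further regulators of G-protein signalling, were 17.6-fold and 4.13-fold higher. Prkca, protein kinase C alpha, was at 17, 81.9, 89.3 and 102 CPM against 282 to 479 CPM, 5.39-fold lower (adjusted p = 0.00104), and Gucy1a3, of soluble guanylyl cyclase, was 6.81-fold lower. In the list of 56 G-protein and cyclic nucleotide genes 5 were higher and 2 lower, and among 35 receptors of acetylcholine, monoamines and other modulators Chrm3 was higher and Chrm4, another muscarinic receptor, was lower, with no count in Martinotti libraries and at most 12.5 CPM in the pools. Of 28 peptide receptors 2 were higher and none lower (0 to 5 and 0 to 1 over the alternatives), Oxtr and the kappa opioid receptor gene Oprk1, the second at 0.642 to 26.8 CPM with no count in any pool. Chrm3 and Prkca passed in all 33 alternatives. Oxtr failed without PV basket animals 9 and 10 (0.0766, the highest of its alternatives), Rgs6 without animals 7 and 8 (0.0685, likewise), and Rgs17, Gucy1a3, Chrm4 and Oprk1 without either (up to 0.299).

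Adhesion molecules were called in both directions, 8 of 88 higher and 10 lower (median log2 0.19). Elfn1, a postsynaptic protein known to make excitatory inputs of somatostatin cells facilitate, was at 613, 598, 769 and 879 CPM against 15.5 to 48 CPM with a median of 28.6, 25.4-fold higher (adjusted p = 0.000583). Nrxn3, a neurexin gene, was at 3030, 2598, 3184 and 2916 CPM against 1017 to 1488 CPM, 2.25-fold higher (adjusted p = 0.0167), and Nrxn2 was 2.9-fold higher (adjusted p = 0.00706). Chl1, of the L1 family, was at 1029 to 1898 CPM against 173 to 507 CPM (5.67-fold, adjusted p = 0.015). The lower genes included 2 of the contactin-associated proteins, Cntnap4 at 15.1 to 52.2 CPM against 240 to 471 CPM (10.8-fold, adjusted p = 0.013) and Cntnap2 at 254 to 477 CPM against 579 to 1081 CPM (2.26-fold, adjusted p = 0.0257). Il1rapl1, a synaptic organiser, was at 60.3, 203, 113 and 119 CPM against 348 to 847 CPM, 5.17-fold lower (adjusted p = 0.00104). Nxph2, a neurexophilin gene, was 28.4-fold and the netrin-G ligand gene Lrrc4c 13.1-fold lower, and Slitrk2 had counts in 1 Martinotti library, at 0.893 CPM, against 1.82 to 82.4 CPM. Elfn1 and Il1rapl1 passed in all 33 alternatives. The other 8 failed without either PV basket replicate, with adjusted p of up to 0.266.

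Cadherins, which mediate adhesion between like cells, gave 5 higher and 1 lower of 27. Cdh13 was at 581, 818, 850 and 958 CPM against 57 to 179 CPM with a median of 107, 7.73-fold higher (adjusted p = 0.00166), and passed in all 33 alternatives. Cdh22, Cdh4 and Cdh8 were 33.2-fold, 8.86-fold and 4.54-fold higher. The protocadherin gene Pcdh8 was at 933, 255, 296 and 92 CPM against 7.88 to 58.4 CPM (12-fold, adjusted p = 0.00453), with the most in library 1. Cdh12 was the lower member, at 9.31 to 39.7 CPM against 67.3 to 319 CPM (6.95-fold, adjusted p = 0.0422). These 5 calls failed without either PV basket replicate (adjusted p up to 0.293).

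Genes of the extracellular matrix gave 4 higher and none lower of 41. Over the alternatives 1 to 9 were higher and 0 to 9 lower, with calls in both directions in 14 of 33. Reln, which encodes the secreted glycoprotein reelin, was at 648, 888, 1455 and 1147 CPM against 15.3 to 70.6 CPM with a median of 24.3, 33.4-fold higher (adjusted p = 0.00258). Timp2, a metalloprotease inhibitor gene, was at 686, 532, 1194 and 975 CPM against 77.3 to 181 CPM, 6.74-fold higher (adjusted p = 0.000465). The libraries of animal 2 were the higher ones in both genes, and all stood above every pool. Thsd7a, of the thrombospondin repeat family, was 4.22-fold and the collagen gene Col25a1 7.22-fold higher, the second with overlap. Among 46 enzymes of heparan and chondroitin sulfate 4 were higher and none lower (0 to 7 and 0 to 4 over the alternatives). Hpse, heparanase, was at 40.3, 162, 22.3 and 196 CPM against 0.356 to 3.01 CPM (74.6-fold, adjusted p = 0.0253), and Chst15, a chondroitin sulfotransferase gene, was at 353, 69.3, 520 and 8.09 CPM against 0 to 50.2 CPM (25.1-fold, adjusted p = 0.0257). In both genes the 2 libraries of each animal differed several-fold. Hs3st5, a heparan sulfotransferase gene, was 7.9-fold and Ust, a uronyl sulfotransferase gene, 7.4-fold higher, Ust with overlap. Of 57 axon guidance genes 2 were lower, Slit2 and Slit3, the second 8.59-fold (adjusted p = 0.0482), and none higher (0 to 4 and 0 to 5 over the alternatives). Over all genes 1.34% were called lower. Timp2 passed in all 33 alternatives and Reln in all but that without PV basket animals 7 and 8 (0.0705, the highest of its alternatives). Hpse and Chst15 failed without any 1 of the 4 replicates and also without single libraries, Hpse without library 4 and Chst15 without library 1 or 3, with adjusted p of up to 0.269. Thsd7a, Col25a1, Hs3st5 and Ust failed without Martinotti animal 1 and without either PV basket replicate (up to 0.307), and Slit3 in 20 of 33 alternatives (up to 0.257).

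Of 80 tested genes of oxidative phosphorylation, 7 were lower in Martinotti cells and none higher, against 1.34% of all genes called lower. The fitted fold change was negative in 70 and positive in 10, with a median log2 of -0.74, against -0.03 over all genes. Over the alternatives 1 to 38 were lower and none higher. Summed over the list, the Martinotti libraries held 20877 to 23903 CPM and the PV basket pools 34582 to 43271 CPM, without overlap. Beside Cox6a2, Atp5c1 of the ATP synthase was at 608, 576, 411 and 458 CPM against 946 to 1608 CPM with a median of 1309, 2.61-fold lower (adjusted p = 0.00785). Uqcrc2 of complex III was 2.89-fold, the cytochrome c oxidase subunit gene Cox7b 2.48-fold and the ATP synthase subunit gene Atp5g3 2.07-fold lower, each without overlap, and Uqcrfs1 and Cox5a of complexes III and IV were the remaining calls. Without Martinotti animal 2, or without either PV basket replicate, Cox6a2 was the 1 member of the list that was called.

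Genes shared by GABAergic neurons gave 2 lower and none higher of 11 (0 to 3 and 0 to 1 over the alternatives). Gad1, which encodes a glutamate decarboxylase, was at 635, 560, 614 and 520 CPM against 1365 to 2008 CPM with a median of 1486, 2.81-fold lower (adjusted p = 0.0155). Its groups did not overlap. Gad2 averaged 1046 and 571 CPM and the vesicular transporter gene Slc32a1 1799 and 2489 CPM, without a call (adjusted p = 0.182 and 0.251). The call of Gad1 ended without any 1 of the 4 replicates (adjusted p up to 0.114).

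Of 14 genes of the medial lineage 2 were higher, Tox and Maf, and none lower (0 to 2 and 0 to 1 over the alternatives). Tox, a regulator of the HMG-box family, was at 368, 416, 362 and 317 CPM against 0.356 to 21.8 CPM (36.6-fold, adjusted p = 0.0105). Maf was at 253 to 398 CPM against 30.9 to 133 CPM (4.73-fold, adjusted p = 0.0424). Mef2c averaged 572 and 1164 CPM, with all libraries below all pools and no call (adjusted p = 0.125), and Nxph1 617 and 514 CPM (adjusted p = 0.861). Among 84 transcription regulators Npas1 was 36.3-fold and Zbtb20 5.66-fold higher and the estrogen-related receptor gene Esrrg 5.48-fold lower. With Tox and Maf, and with Id2, which had no count in Martinotti libraries and at most 30.4 CPM in the pools, this made 4 higher and 2 lower. The shares over all genes were 1.33% and 1.34%. Tox failed without either PV basket replicate (up to 0.162), Npas1 also without Martinotti animal 2 (up to 0.189), Maf in 11 of 33 alternatives and Esrrg in 13 of 32 (up to 0.345). Zbtb20 failed without either PV basket replicate, without Martinotti library 3 and with only the 2 types (up to 0.204), and Id2 in 8 of 33 (up to 0.277). Among 21 genes of calcium-binding proteins Ncald, a neuronal calcium sensor, was lower (4.67-fold, adjusted p = 0.0268) beside Pvalb, and Calb2 was the 1 higher. Ncald failed in 7 of 32 alternatives, among them those without Martinotti animal 2, without library 3 and without either PV basket replicate (up to 0.193). Of 18 genes of neurofilaments and the node of Ranvier none was called (up to 1 higher and 4 lower over the alternatives).

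**Figure D3:**
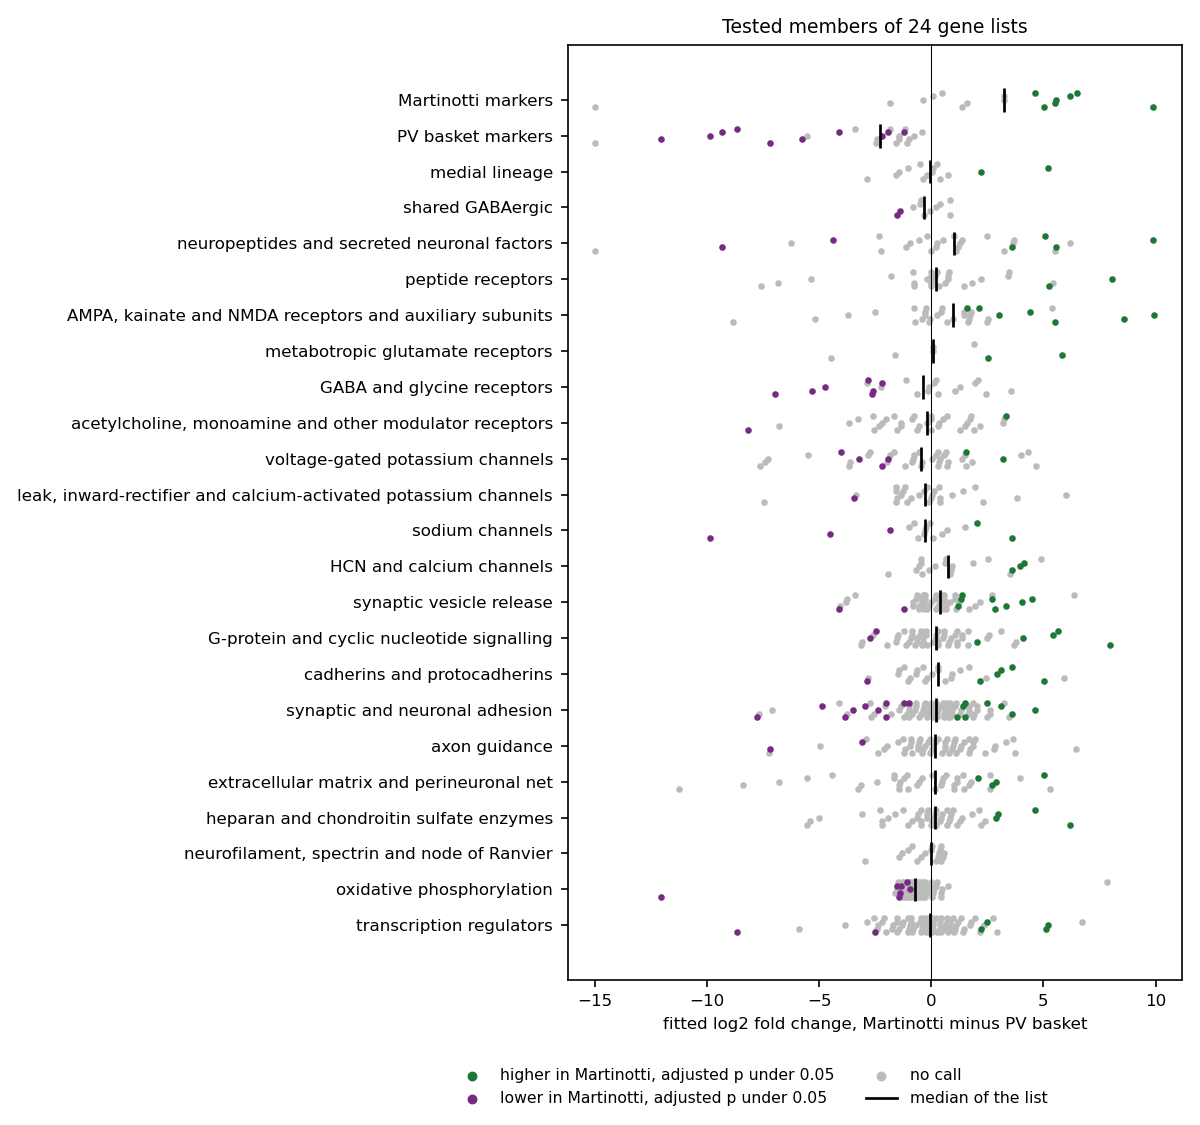
Fitted log2 fold changes (Martinotti minus PV basket) of the tested members of 24 gene lists, 1 row per list; green and purple points are called higher and lower in Martinotti cells, grey points have no call, and the black bar is the median of the list. All called glutamate receptor members lie to the right of 0 and all called GABA and glycine receptor members to the left, and the bulk of the oxidative phosphorylation points lies left of 0 with a median of -0.74.

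Marker lists were read against the labels. Of 16 tested Martinotti markers 7 were higher and none lower (3 to 10 and 0 to 1 over the alternatives), with 13 fold changes positive and 3 negative. Of 24 PV basket markers 10 were lower and none higher (5 to 20 and none), with all 24 fold changes negative. Tac1, which is on both lists and had no call, had no count in Martinotti libraries and 443 to 1465 CPM in the pools. These lists hold the genes behind the crosses and were chosen with earlier results of these data known. Of 8 genes of long-projecting cells, another Sst type, 4 were higher (Chodl, Pde1a, Npy and Oxtr, median log2 5.40), and of 9 chandelier genes 4 were lower (Pthlh, Id2, Rasgrp1 and Cck). Of 12 genes of the caudal lineage Npas1 was higher and Id2 and Cck were lower. Chodl, a marker of those cells, was at 140 and 128 CPM in libraries 1 and 2 and had no count in libraries 3 and 4 or in any pool. Its call (adjusted p = 0.0392) therefore rested on animal 1, and without that animal neither type held a count (fitted log2 0.00, adjusted p = 1, the highest of its alternatives). Tacr1, the substance P receptor gene, was at 220 and 259 CPM in libraries 1 and 2 and at 0 and 3.68 CPM in libraries 3 and 4, against 0 to 55.3 CPM, with no call (adjusted p = 0.188). Every cell of libraries 1 and 2 held counts of Chodl and of Tacr1. Nos1, a gene behind the long-projecting cross, had counts in 8 of 16 and 16 of 16 cells of these libraries. In libraries 3 and 4 it had counts in 2 of 15 and 3 of 15 cells, and in PV basket cells in 17 of 127.

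No tested member of the marker lists of glia, vessels and glutamatergic neurons, or of the immediate early genes, was called, while over the alternatives up to 4 immediate early, 2 glutamatergic, 1 oligodendrocyte and 1 vascular gene were higher and up to 1 astrocyte gene lower. The summed levels of the lists overlapped between groups for oligodendrocyte (31.3 to 259 CPM in Martinotti libraries, 27.3 to 120 CPM in pools), astrocyte (54.2 to 96.8 and 61.6 to 300 CPM), microglia (1.11 to 78 and 1.88 to 9.46 CPM), vascular genes (18.9 to 325 and 15.3 to 88 CPM) and glutamatergic neuron genes (103 to 266 and 58.8 to 122 CPM). All 5 tested microglial genes had a positive fitted change (median log2 3.61, from -1.48 to 4.90 over the alternatives), and C1qa of that list was at 0, 16.4, 0 and 32.4 CPM against at most 4.36 CPM. Cd68, a microglial and macrophage gene outside the list that was chosen after its values were seen, was at 2.22, 7.38, 26.8 and 8.09 CPM with no count in any pool, at least 74.6-fold higher (adjusted p = 0.0312). Cd68 failed in 7 of 29 alternatives, among them those without Martinotti animal 2 and without either PV basket replicate (up to 0.262). Of the defining genes of these lists Olig2, Sox10, Gfap and Emx1 had no count in either type, and Cldn5, Slc17a6, Neurod6, Neurod2, Tbr1 and Fezf2 had none in Martinotti cells. Among the Martinotti libraries library 4 alone carried Pdgfrb, a pericyte gene, at 146 CPM, and most Fos RNA, at 1731 CPM against 79.6 to 285 CPM in the other 3 libraries. Immediate early genes summed to 438 to 2380 CPM in Martinotti libraries and 114 to 776 CPM in pools. Eif2s3y, on the Y chromosome, had no count in the Martinotti libraries, all labelled female, and was at 0.455 to 69.2 CPM in the pools, each of which joins libraries labelled male and female. Ddx3y, also Y-linked, was at 10.7 to 18.9 CPM against 60.9 to 253 CPM, and Xist at 140 to 273 CPM against 63.2 to 161 CPM. Ribosomal RNA reads of Rn45s, examined after its values were seen, were at 467 to 2673 CPM against 1017 to 26773 CPM with a median of 14718, 8.4-fold lower (adjusted p = 0.0167), and failed without any 1 of the 4 replicates (up to 0.103). The part of these differences in the results was not tested.

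To see which differences are found again between another Sst type and another Pvalb-expressing type, the contrast was set beside that of long-projecting cells (cross Sst-Flp; Nos1-Cre; Ai65, 136 cells in 9 libraries, postnatal days 28 and 29, male) against upper-layer chandelier cells (Nkx2.1-CreER; Ai14 with tamoxifen, 80 cells in 5 libraries, postnatal days 40, 50 and 58, female). These libraries share a flow cell and none of them enters the contrast of Martinotti and PV basket cells. Both contrasts come from the same fit, however, and share its estimate of the spread of each gene. The 2 lists of calls are therefore not separate tests, and the shares below are descriptive. In them 633 genes (4.08%) were called. Of the 207 genes higher in Martinotti cells 68 were also higher in long-projecting cells, 32.9% of the 207 and 21.7% of the 313 there, and 3 were lower (Kit, Pcdh8 and Thsd7a). The gamma-protocadherin entries among the 207 had no call there. Of the 208 lower genes 57 were also lower, 27.4% of the 208 and 17.8% of the 320 there, and 6 were higher. Sst, Npy, Pde1a, Pvalb, Erbb4, Cox6a2 and Grin3a were among the genes called in the same direction in both. Sst averaged 2283 CPM in long-projecting and 0.588 CPM in chandelier cells, Pvalb 1.97 and 422 CPM, and Erbb4 77.9 and 2970 CPM.

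The 2 contrasts differed in 148 genes (0.953%), of which 71 were called between Martinotti and PV basket cells. Several of the genes described above were among them. Elfn1 was not called between long-projecting (116 CPM) and chandelier cells (253 CPM), and the difference between contrasts was 5.57 ± 0.66 (log2, SE, adjusted p = 0.0012). Reln stood at 25.1 and 72.9 CPM in those types (difference 6.42 ± 0.89, adjusted p = 0.00367), Cacna1g at 43.5 and 114 CPM (4.81 ± 0.56, adjusted p = 0.00112) and Chrm3 at 98.1 and 146 CPM (3.74 ± 0.55, adjusted p = 0.00598). In Elfn1, Reln and Chrm3 the level was high in Martinotti cells but not in long-projecting cells relative to chandelier cells. Cacna1g was not of this kind. Its Martinotti libraries (45.5 to 101 CPM) began near the long-projecting level and stayed below the chandelier level, while the PV basket pools were low (1.39 to 11.4 CPM). On the lower side Vamp1 stood at 58.9 and 59.3 CPM (difference -4.28 ± 0.75, adjusted p = 0.019), Kcnip4 at 186 and 69.2 CPM (-5.64 ± 0.79, adjusted p = 0.00371) and Gad1 at 2357 and 2011 CPM (-1.93 ± 0.39, adjusted p = 0.037). Thsd7a was called in opposite directions, at 41.1 CPM in long-projecting and 1033 CPM in chandelier cells (difference 6.56 ± 0.63, adjusted p = 0.000219), as was Pcdh8, at 59.3 and 360 CPM (6.02 ± 0.73, adjusted p = 0.0012). Without PV basket animals 7 and 8, or 9 and 10, 21 and 27 genes differed between the contrasts.

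**Figure D4:**
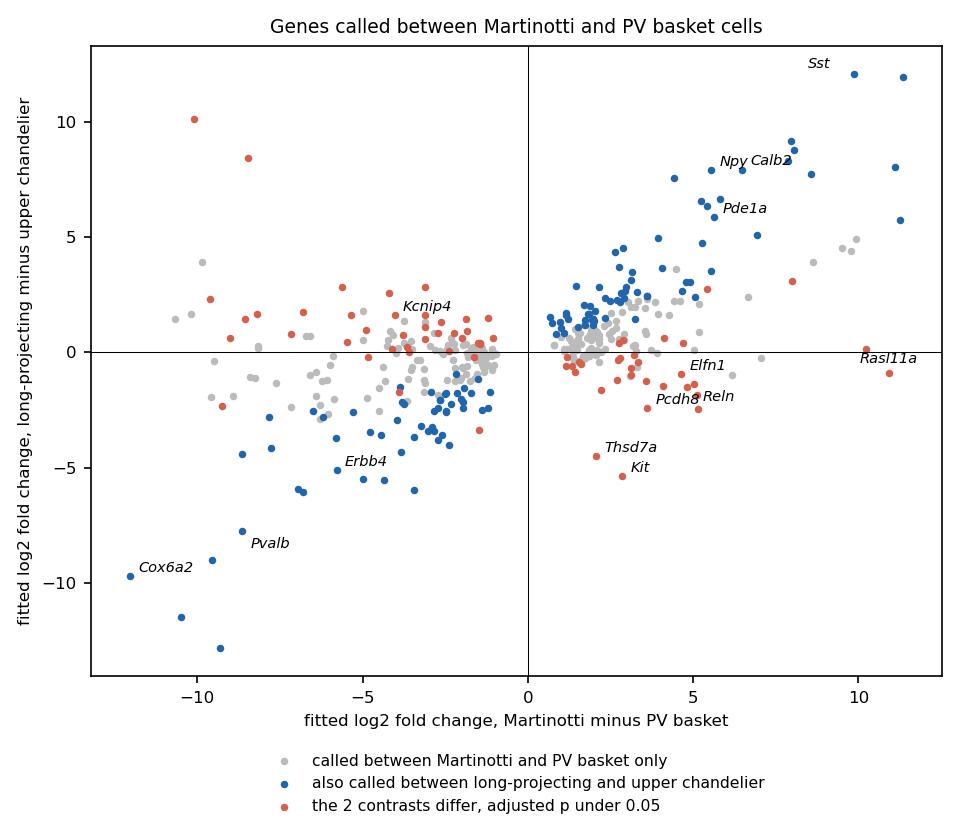
Fitted log2 fold changes of the 415 genes called between Martinotti and PV basket cells (x axis) and the fold changes of the same genes between long-projecting and upper-layer chandelier cells (y axis); blue genes are also called there, red genes are those whose 2 contrasts differ, and grey genes are the rest. Sst, Npy and Pvalb lie near the diagonal, whereas Elfn1 and Reln lie right of 0 on the x axis and slightly under 0 on the y axis.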

How the data were processed

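The values are expected counts per gene and cell in the table the authors deposited, in which 4.07% of values above 0 were not whole numbers. Mapping used Bowtie 0.12.7 and the mouse build mm9, per the submitters' processing notes, and whether reads or tags were counted was not given in the sources used here. Counts of the cells were summed per replicate, rounded and tested with edgeR 4.0.16 (TMM scaling, filterByExpr, robust quasi-likelihood fit, R 4.3.3), with the 16 replicates of 7 cell types in 1 fit and cell type as its term. Benjamini-Hochberg adjustment ran over the 15533 genes kept. 

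Alternatives were DESeq2 1.42.0, RLE scaling, no filter, a filter of 10 CPM in 2 replicates, 18 labelled animals, only the 2 types, pools as samples, pools with the animal as a block in limma 3.58.1, a block by title number, PV basket libraries of 1 labelled sex, genes with whole values, and leaving out each replicate or Martinotti library. Named genes were the genes behind the crosses and, per direction, the 15 largest called differences with at least 50 CPM in the higher type, no overlap of libraries and pools, a usual symbol and a row of their own. Named too were up to 5 called members per list and direction with at least 20 CPM, and the 2 uncalled members with the highest level. Some genes that meet these criteria are not reported here. Further genes named in the text were chosen after their values were seen. The gene lists (35 in all) and members were chosen with earlier results of these data known. On simulated counts the edgeR test called the largest planted changes, missed many of the middle size, and called few of the smallest, which were still several-fold. Promoter windows come from RefSeq tables of GRCm38.p6, a build other than that of the counts, and were matched by symbol.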

Additional observations from a re-analysis of the deposited data

Results flagged for a closer look

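In 38 of 262 groups examined (14.5%), the highest or lowest of the 4 Martinotti libraries or 8 PV basket pools stood apart from the rest by Dixon's criterion, where chance alone gives about 1 in 20 for normally distributed values. CPM with many values at 0 are not of that kind, so the share is not to be read as an excess. Among the Martinotti libraries, library 4 held 1731 CPM of Fos and 146 CPM of Pdgfrb, against at most 285 and 0 CPM in the other 3, and also the highest Kcna1 (183 CPM), Nxph2 (4.42 CPM) and Adssl1 (3.68 CPM). Library 3 held the lowest Cacng3 (105 CPM against 325 CPM or more), the highest Npas1 (244 CPM), the highest Oprk1 (26.8 CPM) and the 1 level above 0 of Slitrk2 and of Rasgrp1 (0.893 CPM each, a single count). Library 1 held the highest Fam19a2 (43.7 CPM) and Sept4 (1.48 CPM), and library 2 the highest Pvalb (7.38 CPM).

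In other genes a single PV basket pool stood above the rest. The highest pool held 43.6 CPM of Pde1a against 8.79 CPM in the next, 156 CPM of Unc13c against 38.6, 89.5 CPM of Syn3 against 36.8, 99.4 CPM of Synpr against 43.2 and 119 CPM of Zbtb20 against 31.8. The same held for Rph3a (19.6 CPM), Rgs17 (191 CPM), Chl1 (507 CPM), Oxtr (9.91 CPM), Igf1 (9.96 CPM), Calb2 (5 CPM), Grm4 (2.13 CPM) and Cacng5 (1.45 CPM), and for Calb1 (569 CPM), Slitrk2 (82.4 CPM), Fos (279 CPM), Id2 (30.4 CPM), Pthlh (80 CPM), Col25a1 (96.1 CPM) and Ust (48.7 CPM). A single pool was low in Kcna1 (229 CPM), Scn1a (266 CPM), Nxph1 (289 CPM), Nrxn3 (1017 CPM) and Grm7 (38.1 CPM).

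For 36 described genes, the difference between Martinotti and PV basket cells was not the difference between long-projecting and upper-layer chandelier cells (edgeR, adjusted p under 0.05). It exceeded that of the other pair, in log2, by 5.57 in Elfn1, 6.42 in Reln, 4.81 in Cacna1g, 3.50 in Cacna2d3, 3.74 in Chrm3, 6.56 in Thsd7a, 8.20 in Kit and 6.02 in Pcdh8. The excess was 2.12 in Gria1, 1.78 in Gria4, 3.05 in Grm5, 1.39 in Syn2, 3.87 in Rph3a, 1.71 in Nrxn3 and 1.95 in Dpp10. Among signalling and regulatory genes it was 11.83 in Rasl11a, 4.89 in Rgs8, 5.56 in Rgs6, 2.69 in Adcy2, 6.96 in Npas1, 3.83 in Maf and 3.48 in Mef2c. In the other direction it was -4.28 in Vamp1, -5.64 in Kcnip4, -1.93 in Gad1, -3.06 in Ncald, -2.43 in Il1rapl1, -5.88 in Nxph2, -3.93 in Glra2 and -3.58 in Gucy1a3. It was -6.91 in Ptpre, -8.55 in Rerg and -6.98 in Eif5a2. Of the sex-linked genes it was -5.93 in Ddx3y and 11.61 in Xist, and the fit gave -20.23 in Eif2s3y, which is no measure of size because neither the Martinotti nor the chandelier libraries held a count of it, where the long-projecting animals are labelled male and the chandelier animals female.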

How the results depend on the processing

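The 415 calls between Martinotti and PV basket cells became 1270 with DESeq2, 1430 with 18 labelled animals, 1494 with pools as samples, 1944 with pools and the animal as a block in limma voom, and 184 with only the 2 types fitted. The other scaling and filters, single-sex PV basket libraries and whole-valued genes gave 335 to 476. Leaving out 1 replicate of any of the 7 types gave 69 to 744 calls, and 177, 151, 69 and 70 of the 415 were kept without Martinotti animal 1, Martinotti animal 2, PV basket animals 7 and 8, and PV basket animals 9 and 10. The lone replicate of a type was then assumed to vary like the other types. Without 1 Martinotti library the count was 341 to 476. Genes that differed between the 2 contrasts numbered 148, and 844 with DESeq2, 662 with 18 labelled animals, 171 with no filter, 221 with the stricter filter, and 21 to 394 without 1 replicate. No called gene changed sign in any alternative, and of 171 named genes 24 were called in all that tested them.

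Title numbers 1 to 4 do not pair Martinotti with PV basket libraries, as same-numbered libraries correlated at 0.0237, -0.000372, -0.00704 and 0.00858 in their deviations. The fit of those 8 labelled libraries with the number as a replicate block gave 686 calls, and 1047 without the block. Depth limits genes near the floor, and having 2 replicates in each of the 2 compared types limits all others.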
